A study of Homo sapiens with 4 samples.

Results

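A set of 10 genes that the transcription factor NF-κB is known to switch on was followed in HCT116 cells, a human colorectal carcinoma line, after siRNA against KIF26B, a gene for a kinesin family protein. They were taken by symbol from 58735 Ensembl gene identifiers, and each symbol matched 1 identifier. They hold 6 chemokines (CXCL1, CXCL2, CXCL3, CXCL8, CCL20 and CCL22), 3 feedback and survival genes (NFKBIA, TNFAIP3 and BIRC3) and the adhesion molecule ICAM1. The 4 libraries were HCT116 cells 48 h after transfection, 2 with control siRNA and 2 with siRNA against KIF26B, each numbered replicate 1 and 2 in the labels. The labels give no other treatment. The headers of the 2 columns for siRNA against KIF26B read K_KD1_2 and K_KD2, and the study elsewhere used 2 siRNAs against KIF26B. The headers may mark different siRNAs, but which siRNA went into which library is not stated in the sources used here. The methods of the study state in general that each experiment had at least 3 biological replicates, whereas 2 libraries per group are given here. Nothing says of these libraries that the 2 of a group came from separate cultures. The p-values therefore measure the spread between these libraries, which may be technical. In the group with siRNA against KIF26B, that spread may also hold a difference between siRNAs, which was not tested.

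NF-κB dimers are held in the cytoplasm by inhibitor proteins of the IκB family. When a receptor such as that for TNF or IL-1 is engaged, the IKK kinase complex marks the inhibitor for destruction, the dimer enters the nucleus and binds κB sites near its target genes. Among these targets are chemokines that call in leukocytes and also the inhibitors that end the signal, so the pathway limits itself. In the intestinal epithelium and in colorectal tumors, this program is known for linking inflammation to neutrophil recruitment and cell survival.

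The promoter stretches below hold the κB matches of the 7 genes whose levels are described in most detail. They are RefSeq promoters on GRCh38.p14, 5′ to 3′ on the gene's own strand, with the match in capitals. Positions are counted from the transcription start, with −1 as the base before it. The CXCL1 window is chr4:73869289-73869349 on the plus strand, with its match at −79 to −69. The CXCL2 window is chr4:74099238-74099298 on the minus strand, with its match at −78 to −68. The CXCL3 window is chr4:74038733-74038793 on the minus strand, with its match at −79 to −69. The CXCL8 window is chr4:73740453-73740511 on the plus strand, with its match at −91 to −83.
CXCL1: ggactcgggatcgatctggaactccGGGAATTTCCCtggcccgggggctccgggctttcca
CXCL2: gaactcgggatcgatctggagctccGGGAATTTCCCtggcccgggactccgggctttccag
CXCL3: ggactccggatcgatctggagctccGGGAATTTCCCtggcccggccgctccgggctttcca
CXCL8: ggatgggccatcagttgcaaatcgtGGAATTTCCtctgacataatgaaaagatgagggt

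CXCL1, CXCL2 and CXCL3 carried the same letters in capitals at nearly the same distance from their starts. The feedback genes are shown next. The NFKBIA window is chr14:35404796-35404855 on the minus strand, with its match at −81 to −72. The TNFAIP3 window is chr6:137867179-137867238 on the plus strand and holds separate matches at −67 to −58 and −55 to −46. The BIRC3 window is chr11:102317324-102317383 on the plus strand, with its match at −135 to −126, and another BIRC3 match lay upstream at −199 to −190.
NFKBIA: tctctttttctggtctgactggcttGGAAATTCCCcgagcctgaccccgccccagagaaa
TNFAIP3: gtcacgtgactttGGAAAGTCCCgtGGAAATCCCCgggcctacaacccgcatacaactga
BIRC3: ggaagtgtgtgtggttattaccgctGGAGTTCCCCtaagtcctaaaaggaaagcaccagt

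The 250 bases upstream of each start were searched on both strands for the κB consensus and for the shorter core GGAATTTCC. The consensus was GGGRNNYYCC, where R is A or G, Y is C or T and N is any base. All 10 genes had an entry among the 35116 RefSeq promoters. The consensus was found in 8 of the 10 genes, against 9.96% of all promoters. The core was found in 6 of the 10 (CXCL1, CXCL2, CXCL3, CXCL8, NFKBIA and ICAM1), against 0.413% of all promoters. Matches of the core and the consensus overlapped in CXCL1, CXCL2, CXCL3 and NFKBIA, while CXCL8 and ICAM1 held the core alone. A match describes letters in the window and is no measure of binding. These genes were picked as known targets, with earlier results of these data known. The core has the letters of the CXCL8 match, and the windows of CXCL1, CXCL2 and CXCL3 are nearly the same. The shares above are thus a description and no test.

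**Figure D1:**
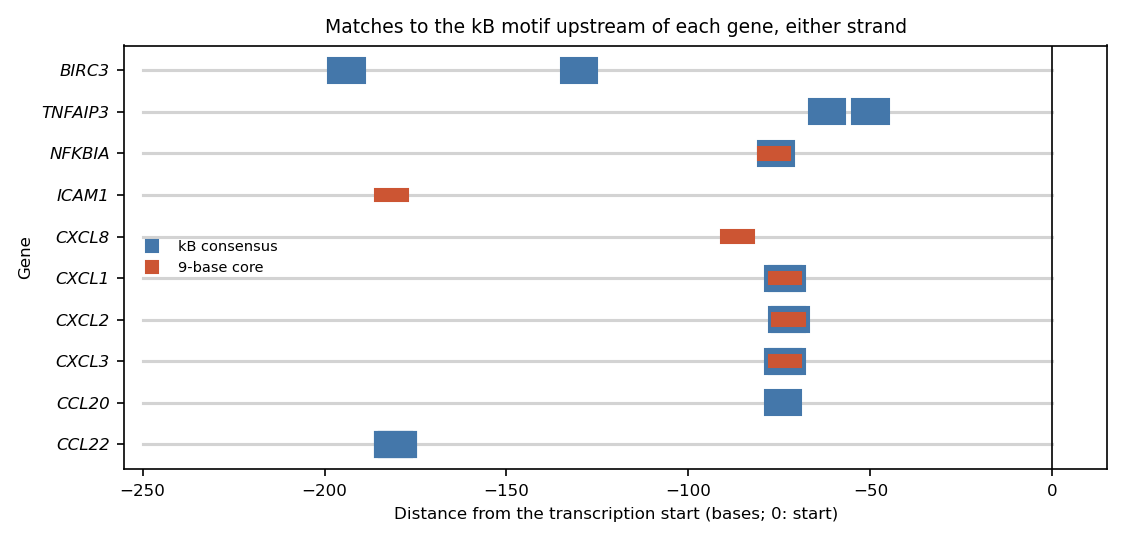
Position of κB consensus (blue) and core (red) matches on either strand in the 250 bases upstream of the transcription start (x axis, bases from the start) of each of the 10 genes (rows). In CXCL1, CXCL2, CXCL3, CXCL8, CCL20 and NFKBIA the match lies between −91 and −68, and BIRC3 and TNFAIP3 hold 2 matches each.

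The libraries held between 18775149 and 24313792 reads on genes, recovered from the steps of the deposited FPKM (fragments divided by exon length and by the size of the library). KIF26B itself stood at 0.11 and 0.205 FPKM in the control libraries and at 0.14 and 0.0307 FPKM in the libraries labelled KIF26B siRNA, from 31, 73, 43 and 8 reads. Replicate 1 labelled KIF26B siRNA thus lay between the controls, with 0.857 times their read rate (95% exact counting interval 0.586 to 1.23), whereas replicate 2 had 0.189 times that rate (0.0793 to 0.386). Markers of colorectal epithelium summed to 839 and 834 FPKM in the controls and to 642 and 639 FPKM in the libraries labelled KIF26B siRNA. Most of that sum was KRT8 and KRT18, which with CDH1 were lower in both libraries labelled KIF26B siRNA. EPCAM, at 82.2 and 82.3 FPKM in the controls against 77 and 98.6 FPKM, and CDX2 overlapped between the groups. VIL1 was near 0 in every library. The summed leukocyte markers were 0.471 to 0.711 FPKM in every library, with CD3E at 0. The fibroblast markers summed to 4.85 to 8.75 FPKM, nearly all of it COL1A1, and the endothelial markers to 0.073 to 0.201 FPKM. The part of these differences in the results below was not tested.

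In the control libraries, NFKBIA was the most abundant of the 10 genes at 13.2 ± 0.555 FPKM (SD, n = 2). CXCL8 (4.02 ± 0.518 FPKM) and BIRC3 (3.71 ± 0.324 FPKM) came next with overlapping libraries, followed by TNFAIP3 (3.35 ± 0.167 FPKM), ICAM1 (1.88 ± 0.249 FPKM) and CXCL1 (1.1 ± 0.0542 FPKM). CXCL2 (0.535 ± 0.0841 FPKM), CCL20 (0.421 ± 0.128 FPKM) and CXCL3 (0.361 ± 0.186 FPKM) lay below 1 FPKM, and CCL20 overlapped with each of the other two. CCL22 was lowest, at 0.172 ± 0.0277 FPKM. The read numbers behind these levels ran from 22 for CCL22 to 2236 for NFKBIA over the 4 libraries, so the feedback genes were measured far more precisely than most of the chemokines.

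**Figure D2:**
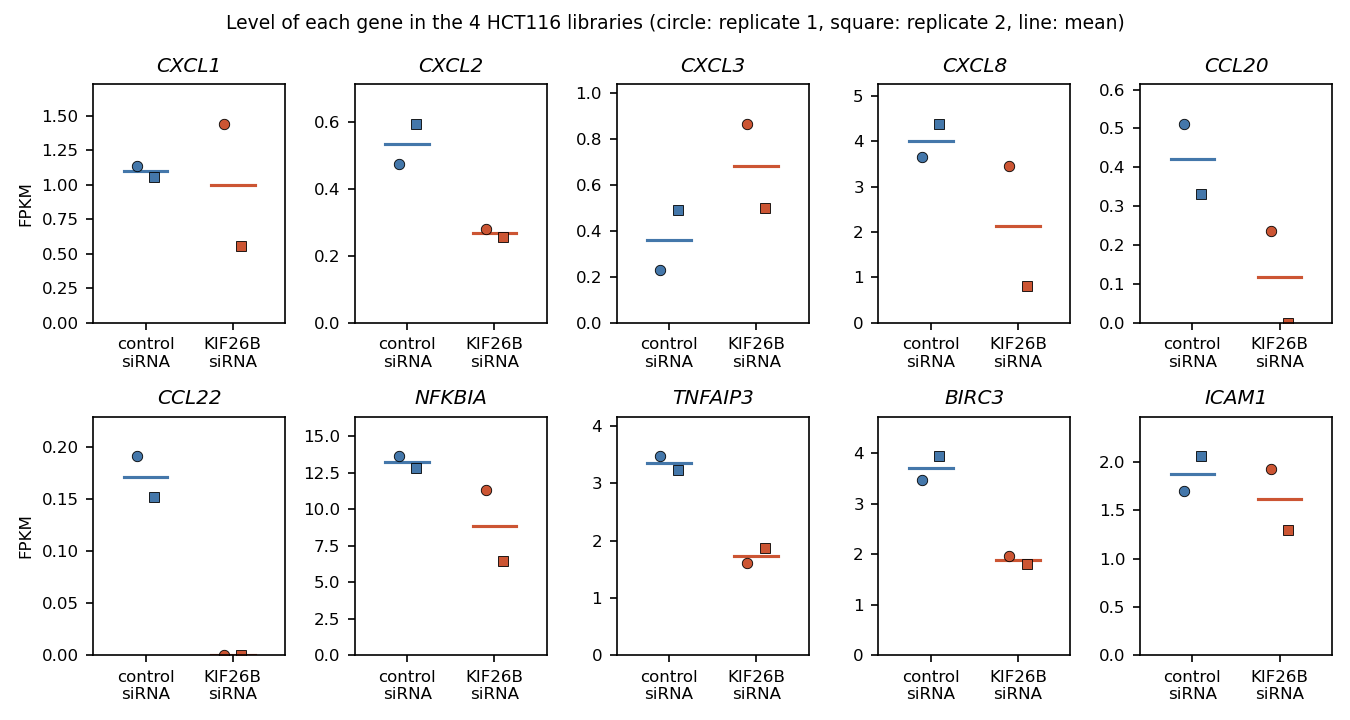
FPKM (y axis, separate linear scale per panel, starting at 0) of each of the 10 genes in the 2 control siRNA libraries (blue) and the 2 libraries labelled KIF26B siRNA (red), with circles for replicate 1, squares for replicate 2 and a line at the mean. TNFAIP3 and BIRC3 lie low in both libraries labelled KIF26B siRNA, and CXCL8 and NFKBIA lie lowest in replicate 2.

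The comparison asked how expression differed after siRNA against KIF26B. It used limma on log2(FPKM + 1) for the 14523 genes that averaged 1 FPKM or more over the 4 libraries, a scale that understates the change of low genes. A gene counted as changed at an unadjusted P below 0.05 with a log2 fold change beyond 1. By these thresholds 0.606% of all genes tested were lower and 0.813% were higher, and 0% passed an adjusted p below 0.05. Of the 10 genes, 6 could be tested (CXCL1, CXCL8, NFKBIA, TNFAIP3, BIRC3 and ICAM1), and 0 passed the thresholds in either direction. At an unadjusted P below 0.05 alone, 2 of the 6 were lower (TNFAIP3 and BIRC3) and 0 were higher, where 8.68% of all genes were lower and 7.74% higher. The fitted log2 fold change was negative for all 6, with a median of −0.62, against −0.01 over all genes tested. That median was −0.19 without KIF26B siRNA replicate 2, where CXCL1 and ICAM1 were positive, and −0.31 over all 10 genes in the fit without the filter. The 10 genes were chosen with earlier results of these data known, so this contrast with all genes is a description and no test. Both libraries labelled KIF26B siRNA lay below both controls for 4 of the 6 (CXCL8, NFKBIA, TNFAIP3 and BIRC3), as they did for 27.8% of all genes tested, and above both for 0 of the 6, against 24.9% of all genes. An exact two-sided permutation test of 2 libraries against 2 cannot give a p below 0.333. In RNA from bulk cultures, fewer cells of a type and less RNA per cell cannot be told apart.

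TNFAIP3 encodes a ubiquitin-editing enzyme that shuts off NF-κB signaling (ENSG00000118503, GRCh37 chr6:138188351-138204451, plus strand). It was at 3.47 and 3.23 FPKM in the controls and at 1.6 and 1.87 FPKM in the libraries labelled KIF26B siRNA, from 344, 403, 173 and 171 reads. The groups did not overlap, and the mean of 1.74 ± 0.191 FPKM was 51.9% of the control mean. In limma, the log2 fold change was −0.67 (SE 0.12), with an unadjusted P of 0.00533 and an adjusted p of 0.242. Leaving out any 1 library moved it between −0.74 and −0.60, and the unadjusted P in limma was 0.0845 without control siRNA replicate 1 and 0.0611 without control siRNA replicate 2. In such fits 1 library stands for its group and is assumed to vary like the other group. The antisense gene WAKMAR2 overlaps TNFAIP3 and held 4 to 12 reads per library.

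BIRC3 encodes a ubiquitin ligase of the inhibitor-of-apoptosis family that acts at the TNF receptor complex (ENSG00000023445, GRCh37 chr11:102188215-102210134, plus strand). Its values were 3.48 and 3.94 FPKM in the controls and 1.97 and 1.8 FPKM in the libraries labelled KIF26B siRNA, from 514, 731, 316 and 244 reads. Again the groups did not overlap, and both libraries labelled KIF26B siRNA sat close together, at 53% and 48.4% of the control mean. limma gave a log2 fold change of −0.71 (SE 0.12), with an unadjusted P of 0.00438 and an adjusted p of 0.242. Without control siRNA replicate 2, with the lone control assumed to vary like the other group, the unadjusted P in limma was 0.079. An antisense gene overlaps BIRC3 in the annotation and was not analysed here, and whether counting used the strand is not stated in the sources used here.

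NFKBIA encodes IκBα, the inhibitor that binds NF-κB and is itself renewed by it (ENSG00000100906, GRCh37 chr14:35870285-35873955, minus strand). It stood at 13.6 and 12.8 FPKM in the controls and at 11.3 and 6.44 FPKM in the libraries labelled KIF26B siRNA, from 634, 751, 575 and 276 reads. Both of the latter were below both controls, and replicate 2 was much the lower, with 0.568 times the read rate of replicate 1 (95% exact counting interval 0.49 to 0.656). The mean was 8.89 ± 3.47 FPKM, or 67.3% of the control mean, and the log2 fold change of −0.57 (SE 0.28) gave an adjusted p of 0.394 in limma. It was −0.93 without KIF26B siRNA replicate 1 and −0.20 without KIF26B siRNA replicate 2.

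CXCL8, also known as interleukin-8, is a major attractant of neutrophils (ENSG00000169429, GRCh37 chr4:74606236-74609433, plus strand). It was at 3.65 and 4.38 FPKM in the controls and at 3.46 and 0.803 FPKM in the libraries labelled KIF26B siRNA, from 163, 246, 168 and 33 reads. Replicate 1 was just below the lower control, and replicate 2 had 0.232 times the read rate of replicate 1 (95% exact counting interval 0.155 to 0.339). A ratio of these 2 libraries under 0.3 occurred in 0.811% of the 14304 tested genes above 0 in every library, and the same ratio between the controls in 0.447%. Ratios under 0.5 occurred in 4.53% against 1.55% between the controls, and ratios above 2 in 6.29% against 1.6%. CXCL8 had a log2 fold change of −0.82 (SE 0.48), with an adjusted p of 0.452 in limma. Without KIF26B siRNA replicate 1 it was −1.47 (unadjusted P of 0.00261) and without KIF26B siRNA replicate 2 it was −0.17 (unadjusted P of 0.295), both from fits in which 1 library stands for its group and the spread between libraries comes from the controls. KIF26B had its lowest read rate in the same library, replicate 2, and the part of this in the values was not tested.

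ICAM1, an adhesion molecule that leukocytes bind, overlapped between the groups (ENSG00000090339, GRCh37 chr19:10381769-10397291, plus strand). Its FPKM values were 1.7 and 2.06 in the controls and 1.93 and 1.3 in the libraries labelled KIF26B siRNA, from 124, 188, 153 and 87 reads. The log2 fold change was −0.15 (SE 0.18), with an adjusted p of 0.702 in limma, and it was 0.03 without KIF26B siRNA replicate 2. CXCL1, an attractant of neutrophils, also overlapped (ENSG00000163739, GRCh37 chr4:74735110-74737025, plus strand). It was at 1.14 and 1.06 FPKM in the controls and at 1.44 and 0.555 FPKM in the libraries labelled KIF26B siRNA, from 29, 34, 40 and 13 reads. Replicate 1 was thus the highest and replicate 2 the lowest of all 4, and the log2 fold change of −0.11 (SE 0.26) had an adjusted p of 0.855 in limma. It was 0.22 without KIF26B siRNA replicate 2. For ICAM1, CXCL1, CXCL8, NFKBIA and BIRC3, and for CXCL2 and CCL20 below, replicate 2 labelled KIF26B siRNA was the lowest of the 4 libraries. It was not the lowest for TNFAIP3 and CXCL3, and CCL22 had no reads in either library labelled KIF26B siRNA. The share of all genes with replicate 2 lowest was not computed.

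CXCL2, CXCL3, CCL20 and CCL22 had a mean below 1 FPKM, so their fold changes come from the same limma fit without the filter. CXCL2, a further neutrophil attractant (ENSG00000081041, GRCh37 chr4:74962757-74964913, minus strand), was at 0.475 and 0.594 FPKM in the controls and at 0.281 and 0.258 FPKM in the libraries labelled KIF26B siRNA, from 14, 22, 9 and 7 reads. The groups did not overlap. The read rate relative to both controls was 0.518 in replicate 1 (95% exact counting interval 0.22 to 1.1), 0.477 in replicate 2 (0.179 to 1.09) and 0.499 in both pooled (0.259 to 0.923). Its log2 fold change was −0.27 (SE 0.08), with an unadjusted P of 0.0297 and an adjusted p of 0.34 in limma. With the replicate number as a block the unadjusted P in limma was 0.0838, and with a variance trend it was 0.0926.

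CXCL3 was the single gene of the 10 with a mean above that of the controls (ENSG00000163734, GRCh37 chr4:74902306-74904524, minus strand). Its FPKM values were 0.23 and 0.493 in the controls and 0.865 and 0.499 in the libraries labelled KIF26B siRNA, from 10, 27, 41 and 20 reads. Both libraries labelled KIF26B siRNA lay above both controls, although the higher control and replicate 2 were nearly equal. The read rate relative to both controls was 2.3 in replicate 1 (95% exact counting interval 1.44 to 3.69), 1.33 in replicate 2 (0.729 to 2.34) and 1.85 in both pooled (1.21 to 2.87), and that of control replicate 2 relative to control replicate 1 was 2.15 (1.01 to 4.97). For CXCL3, the log2 fold change was 0.30 (SE 0.17), with an adjusted p of 0.618 in limma.

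CCL20 attracts cells that carry CCR6, among them dendritic cells and subsets of T cells (ENSG00000115009, GRCh37 chr2:228670455-228682280, plus strand). It was at 0.511 and 0.331 FPKM in the controls, at 0.235 FPKM in replicate 1 labelled KIF26B siRNA and at 0 in replicate 2, from 16, 13, 8 and 0 reads. Against a floor of 3 reads per library, replicate 2 was at least 3.94-fold lower than the controls as counted, and the 95% exact interval, which also covers the counting error of the controls, reached 0.333 times their rate. The log2 fold change was −0.35 (SE 0.15), with an adjusted p of 0.488 in limma. CCL22, a ligand of CCR4 that attracts regulatory T cells (ENSG00000102962, GRCh37 chr16:57392695-57400101, plus strand), was at 0.191 and 0.152 FPKM in the controls, from 11 reads each, and at 0 reads in both libraries labelled KIF26B siRNA. Against the same floor per library, that is at least 3.54-fold lower in replicate 1 and at least 2.99-fold lower in replicate 2, with 95% exact intervals that reached 0.379 and 0.448 times the control rate. The fitted log2 fold change of −0.23 (SE 0.06) had an unadjusted P of 0.0304 and an adjusted p of 0.342 in limma and depends on the pseudocount.

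**Figure D3:**
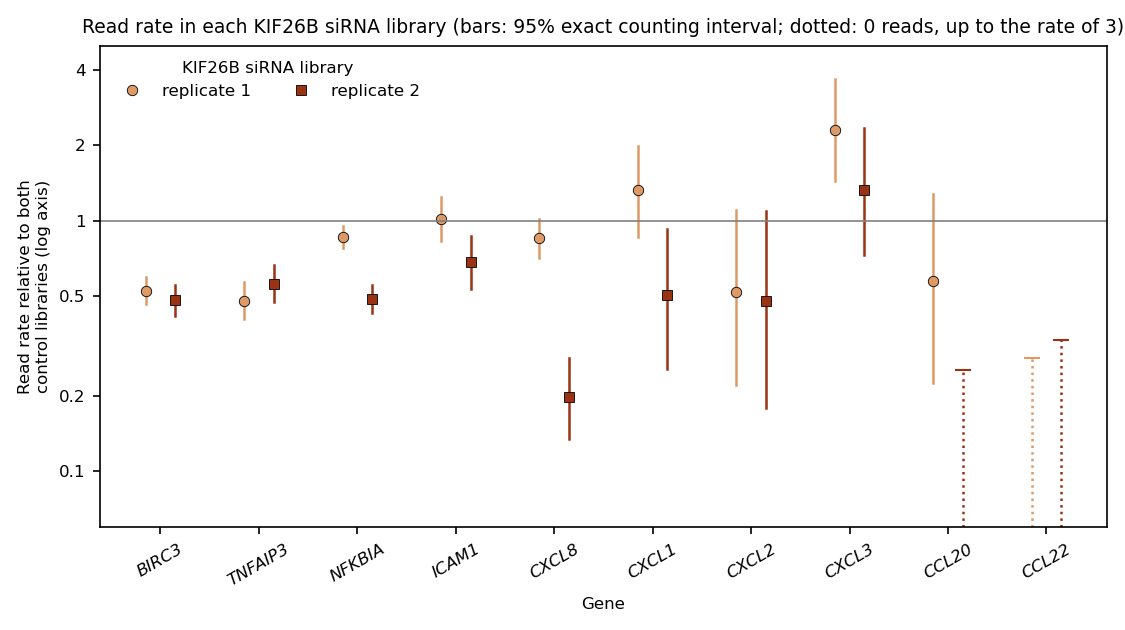
Read rate of each gene in each library labelled KIF26B siRNA relative to both control libraries (log axis, with a line at 1), with bars for the 95% exact counting interval and dotted lines up to the rate of 3 reads in that library where no read was found. Both libraries lie between 0.48 and 0.561 for BIRC3 and TNFAIP3, whereas for CXCL8 they lie at 0.852 and 0.198.

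Over all 10 genes, 9 had a lower read rate in the pooled libraries labelled KIF26B siRNA than in the controls. In the limma fit, 7490 of the 14523 genes tested had a negative log2 fold change. That background is an unlike measure, on genes past a filter that some of the 10 did not meet. In replicate 1 alone CXCL1, CXCL3 and ICAM1 had a rate above that of the controls, and in replicate 2 alone CXCL3 did. The share of all genes with a lower read rate was not computed, for the pooled or the single libraries. With CCL22 at its bound for 3 reads over the group, the median log2 ratio of the rates was −0.90. When the recovered reads were fitted with limma-voom in place of log2(FPKM + 1), all 10 genes met its filter of 10 reads in 2 libraries. CXCL2, CCL20 and CCL22 met it through the controls alone, so that a lower value was built in, and they are left out of the counts that follow. Of the other 7 genes, 2 were lower at an unadjusted P below 0.05 (TNFAIP3 and BIRC3), where 10.8% of the 18393 genes tested were lower. By the thresholds 1 of the 7 was lower (BIRC3), where 2.38% of all genes were, and both shares include genes that met the filter in 1 group alone. BIRC3 was at −1.02 (SE 0.18) in that fit, just beyond the fold threshold, and TNFAIP3 at −0.99 (SE 0.19), just short of it, with adjusted p of 0.15 and 0.157. With the deposited divisors as library sizes, an alternative chosen after seeing the data, 0 of the 7 passed the thresholds.

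CXCL8, CXCL1, CXCL3 and CXCL2 lie in this order within 358678 bases of chromosome 4. CXCL6, PF4V1, PF4, PPBP and CXCL5, which lie between them, had 0 reads in all 4 libraries. CXCL1, CXCL2 and CXCL3 are close relatives, so their values are uncertain where counting could split or drop reads that match more than 1 of them. Only 1 annotated transcript per gene was compared. That of CXCL2 has 577 bases, shorter than the 1500 bases recovered from its FPKM, so part of its sequence was not compared. The longest run shared by these transcripts was 93 bases between CXCL2 and CXCL3, 61 between CXCL1 and CXCL2 and 55 between CXCL1 and CXCL3. Between CXCL1 and CXCL8 it was 10. Of the 75-base runs of CXCL2, 3.78% also occurred in CXCL3, and 0% of such runs were shared by the other pairs. The methods of the study name reads longer than the longest shared run, sequenced in pairs.

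Most of the remaining chemokines had no reads. Of 36 other CXCL, CCL and related chemokines, 21 had 0 reads in every library and 1 could be tested. That gene was CXCL16, a transmembrane chemokine, at 22 and 23.7 FPKM in the controls and 19.4 and 27 FPKM in the libraries labelled KIF26B siRNA, with a log2 fold change of 0.01 and an adjusted p of 0.988 in limma. CCL5 and CCL26 were next by level, with 6 to 25 and 6 to 10 reads per library. The receptors CXCR1, CXCR2, CCR4 and CCR6, which the chemokines above bind, had 0 to 4 reads per library.

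To place the 10 genes, a list of 55 other known NF-κB targets was written, with earlier results of these data known. It shares some genes with the other chemokines above and some, NFKBIE among them, with the pathway components below. Of the 55, 28 could be tested, 0 passed the thresholds, and 17 had a negative and 11 a positive log2 fold change. Their median was −0.03. At an unadjusted P below 0.05, 1 of the 28 was lower and 2 were higher, no larger a share than the 8.68% and 7.74% of all genes, and they are named after their values were seen. NFKBIE, a further IκB inhibitor, was at 7.78 and 8.48 FPKM in the controls and 5.15 and 5.08 FPKM in the libraries labelled KIF26B siRNA. LIF, a cytokine of the interleukin-6 family, was at 25.3 and 25.1 against 46.9 and 48.5 FPKM, and BCL2L1, a survival gene, at 32 and 30.4 against 52.7 and 47.6 FPKM. In each of these 3 genes the groups did not overlap, and each had an adjusted p of 0.242 in limma. The most abundant of the list were IER3, SDC4 and NFKB2, with log2 fold changes of 0.07, 0.20 and 0.22 and adjusted p of 0.831, 0.736 and 0.783 in limma.

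Components of the pathway itself were tested for 48 of 58 listed genes, with a median log2 fold change of −0.10 and 0 past the thresholds. RELA, the subunit of the main activating dimer, was at 22.6 and 23.3 FPKM in the controls and 18.1 and 28.5 FPKM in the libraries labelled KIF26B siRNA, on both sides of the controls. NFKB1, which encodes its partner, was at 5.33 and 6.11 against 5.92 and 2.91 FPKM, lowest in replicate 2, with an adjusted p of 0.598 in limma. By level, NFKB2, IRAK1 and TNFRSF1A came highest, and IRAK1, a kinase of the interleukin-1 receptor, was at 25.8 and 25.2 against 28.9 and 27.2 FPKM, while TNFRSF1A, a TNF receptor, was at 25.5 and 25.7 against 22.5 and 31.7 FPKM. The medians were −0.01 over 5 subunits, −0.12 over 8 kinases, −0.08 over 17 adaptors and ligases, −0.11 over 12 inhibitors and −0.10 over 6 receptors. At an unadjusted P below 0.05, 3 of the 48 components were lower (CHUK, NFKBIE and IL1RAP) and 3 were higher (TRAF3, TRADD and NFKBIB), again no larger a share than the 8.68% and 7.74% of all genes. They are named after their values were seen. IL1RAP, a subunit of the interleukin-1 receptor, was at 2.08 and 2.15 FPKM in the controls and 0.996 and 1.19 FPKM in the libraries labelled KIF26B siRNA. In limma-voom it was at −1.01, with an adjusted p of 0.15. It was the 1 of 51 components past the thresholds and lower in that fit, where 2.38% of all genes were. CHUK, a kinase of the IKK complex, was at 14 and 13.2 FPKM in the controls and 9.82 and 8.12 FPKM in the libraries labelled KIF26B siRNA, with an adjusted p of 0.253 in limma.

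**Figure D4:**
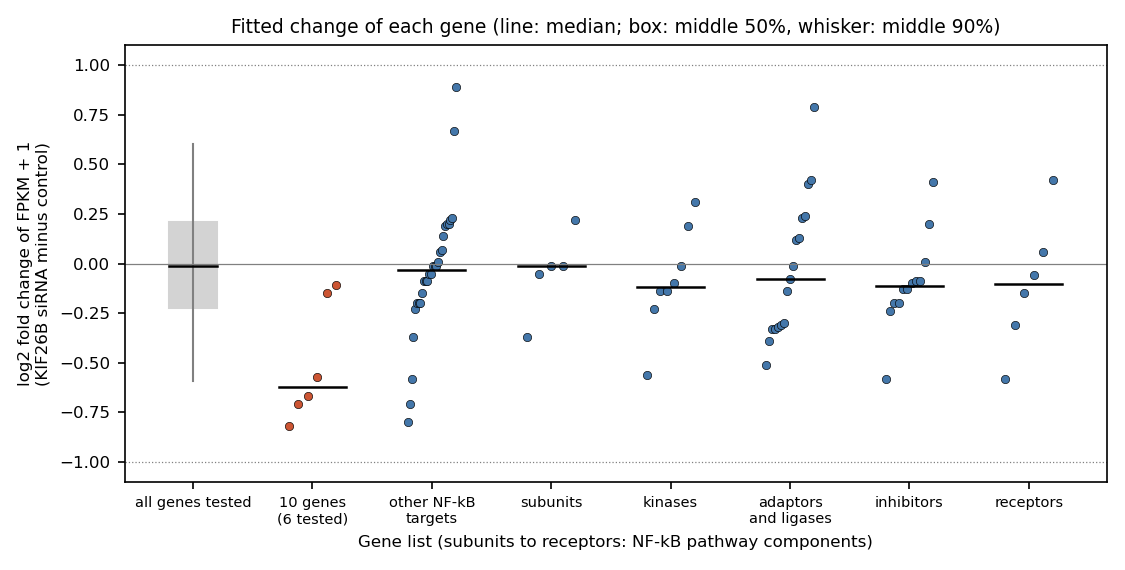
Fitted log2 fold change of FPKM + 1 (y axis, KIF26B siRNA minus control siRNA) of every tested gene (points) in each list, with a line at the median and, for all genes tested, a box over the middle 50% and a whisker over the middle 90%. The 6 tested of the 10 genes lie between −0.82 and −0.11 with a median of −0.62 (−0.19 without KIF26B siRNA replicate 2), and the medians of the other lists lie between −0.12 and −0.01.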

How the data were processed

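RNA of HCT116 cells was sequenced by the authors as poly(A)-selected paired-end libraries. The values the authors deposited are FPKM, 1 per gene and library, a unit read from the values. The submitters' processing notes name HISAT2 2.0.5, featureCounts 1.5.0-p3 and hg38, whereas the methods of the study name hg19 and DESeq2; gene coordinates here are GENCODE's on GRCh37. Of 58735 identifiers, 56513 had a symbol. SOD2 and PECAM1 were matched to none and were not used.

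Whole reads were recovered from the FPKM steps for 34635 of 34638 genes above 0, to within 0.0001 reads, with 1 length per gene. The totals were 19214446 and 24313792 reads for control siRNA and 21096387 and 18775149 reads for KIF26B siRNA, or 0.979, 0.985, 0.987 and 1.039 times the divisors by which the authors scaled each library. Read rates are reads per divisor. Exact intervals and floors cover counting error only.

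The fit was limma on log2(FPKM + 1), restricted to genes that averaged 1 FPKM or more, without covariates, with Benjamini-Hochberg adjustment over all genes tested. It had 2 residual and 2 prior degrees of freedom. Its functions were tested on simulated data. The alternatives were no filter, a minimum of 1 FPKM in each library, a pseudocount of 0.1, the replicate number as a block, median-of-ratios scaling, a variance trend, limma-voom on genes with at least 10 reads in 2 libraries, a threshold on the adjusted p, and the omission of each library.

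The 10 genes and the lists were chosen with earlier results of these data known. Named are the 10, KIF26B, RELA, NFKB1, the 3 most abundant of each list, genes past the thresholds and neighbors. Apart from markers, receptors of the chemokines, cytokines that start the pathway and IL6, others are named as chosen after their values were seen. R 4.3.3, limma 3.58.1, Python 3.11.15, numpy 2.4.6, pandas 2.3.3, scipy 1.17.1, Biopython 1.88 and matplotlib 3.10.9 were used.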

Additional observations from a re-analysis of the deposited data

How the results depend on the processing

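With 2 libraries per group and 22 to 2236 reads per gene, small differences were not detectable at this depth. Over the alternatives, 103 of the values for single genes kept their direction and their side of the thresholds, 5 passed the thresholds and 2 reversed. The reversals were CXCL1 at 0.22 and ICAM1 at 0.03 without KIF26B siRNA replicate 2, and the ranges when leaving out a library were −0.43 to 0.22 and −0.32 to 0.03. CCL22 passed at −1.44 with a pseudocount of 0.1, −4.39 in limma-voom and −4.35 with the deposited divisors, but it met the read filter of the latter 2 fits through the controls alone, which builds in a lower value, BIRC3 at −1.02 in limma-voom, and CXCL8 at −1.47 without KIF26B siRNA replicate 1, where the lone library is assumed to vary like the controls. The number of the 10 genes past the thresholds and lower was 2 in limma-voom and 1 with the divisors, CCL22 among them both times, and 0 to 1 when leaving out a library. The median of the tested genes was −0.31 without the filter, −0.99 in limma-voom and −0.95 with the divisors, and −0.67 to −0.19 when leaving out a library. The fits without the filter and on reads hold all 10 genes. Those on reads include CXCL2, CCL20 and CCL22, which met the read filter through the controls alone. A lower value was thus built into the medians of −0.99 and −0.95. The median of the other targets was −0.13 in limma-voom, reversed to 0.06 without KIF26B siRNA replicate 1 and ranged down to −0.12 when leaving out a library, and that of the components ranged from −0.10 to −0.02. Over all genes, 88 lower and 118 higher became 52 and 69 with at least 1 FPKM in every library, 203 and 217 with a pseudocount of 0.1, 438 and 312 in limma-voom, 382 and 358 with the divisors, 0 and 0 at an adjusted p below 0.05, and 123 to 223 and 156 to 334 when leaving out a library. Beyond those named, the cause was not tested. Same-numbered libraries did not deviate together (correlation −0.003). With the replicate block, 98 genes were lower and 135 higher, and 0 of the 10 genes passed the thresholds, with unadjusted P of 0.0175 for TNFAIP3 and 0.0146 for BIRC3 and a smallest adjusted p in limma of 0.391.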

Other observations

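A few other targets in the list are named after their values were seen. GADD45B, a stress-induced gene, was at 19.3 and 19.6 FPKM in the control libraries and at 7.14 and 16.1 FPKM in the libraries labelled KIF26B siRNA, so that replicate 1 was the lowest of the 4. CD83, a surface protein of activated immune cells that some tumor cells also carry, was at 5.93 and 6.25 FPKM in the controls and at 4.67 and 2.31 FPKM in the libraries labelled KIF26B siRNA, with replicate 2 the lowest. Their log2 fold changes of −0.80 and −0.71 had adjusted p of 0.395 and 0.339 in limma. LCN2, an iron-binding defense protein, was higher in both libraries labelled KIF26B siRNA, with 23 and 40 reads against 5 and 11 reads in the controls. Its log2 fold change was 0.71 with an adjusted p of 0.36 in the limma fit without the filter. In limma-voom it was 2.03, past the thresholds, with an unadjusted P of 0.0189 and an adjusted p of 0.226. By the thresholds 312 of the 18393 genes tested were higher in that fit. TNFRSF9 and PTGS2 went the other way in limma-voom, at −2.54 and −1.17, short of the thresholds with unadjusted P of 0.0588 and 0.0781.

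Of the cytokines that commonly start the pathway, TNF and IL1B were near 0. TNF had 1 and 0 reads in the controls and 3 and 0 reads in the libraries labelled KIF26B siRNA. IL1B had 6 and 4 against 8 and 5 reads, and IL1A had 15 and 20 against 10 and 12 reads. IL6, a cytokine listed here as a target, had 0 and 2 against 0 and 0 reads. Differences in these genes were not detectable at this depth.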
